A study of Mus musculus with 8 samples.

Results

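The Akr1b genes of the mouse encode aldose reductases and close relatives, and all 4 annotated by that name in the deposited table, Akr1b3, Akr1b10, Akr1b8 and Akr1b7, are described here, out of 49584 features counted in RNA of heart mitochondria. They were chosen by name, with their values in the comparison of knockout with control hearts already known, so those values are given as a description without a test. The knockout mice (L/L, cre; genotype label Tefm -/-) had an exon of Tefm flanked by loxP sites and removed by cre under the muscle creatine kinase promoter, and TEFM helps the RNA polymerase of mitochondria to elongate transcripts. The controls (L/L; genotype label Tefm +/+) carry no cre in their label. Each group held 4 animals, whose strain, age and sex the labels do not give. Cells of the heart in which this promoter is silent, such as fibroblasts and endothelium, keep the gene. The RNA was total RNA of crude mitochondria, so what is measured for these nuclear genes is the RNA that co-purified with the organelle.

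Aldo-keto reductases use NADPH to turn aldehydes and ketones into alcohols. Akr1b3 is the mouse aldose reductase, which reduces glucose to sorbitol in the polyol pathway, from which sorbitol dehydrogenase makes fructose. Akr1b7 was first described as a protein of the vas deferens and is abundant in the adrenal cortex, where it reduces an aldehyde by-product of steroid synthesis. Akr1b8 was first found as a gene induced by fibroblast growth factor, and Akr1b10 is a further relative that reduces aldehydes. In the heart the polyol pathway is known mainly from work on diabetes and ischaemia.

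The library totals were 21108165 to 25393933 counts in knockouts and 26268804 to 27403415 in controls. Features of mitochondrial DNA took 38.7% to 59.3% of the counts in knockouts and 72.3% to 74.0% in controls, so nuclear genes held 10331611 to 13204546 counts per library in knockouts and 6825329 to 7596951 in controls. CPM values below are counts scaled to library size with TMM factors, which follows nuclear genes. Scaling by library totals alone moved the median log2 fold change of all genes up by 0.99. The values it gives are added where they turn the printed direction of a called gene. For genes that did not pass they are not always added, and the lack of a value does not mean a stable result. Under that scaling 14066 of the 17891 genes tested were called higher and 480 lower. Knockout replicate 1 had the highest mitochondrial share of the knockouts. Whole-gene counts of Tefm were 166, 233, 230 and 245 in knockouts, against 110, 117, 106 and 144 in controls, and did not pass the threshold (log2 fold change 0.14, SE 0.11; adjusted p = 0.324, edgeR quasi-likelihood test). These counts cover the whole gene and do not check the deletion, and counts per exon were not analysed here. All 8 cardiomyocyte markers looked for were detected, with a summed level of 7923 to 12659 CPM in knockouts and 18119 to 19222 CPM in controls. This lower level is relative to nuclear RNA. In raw counts the markers summed to 1219217 in knockouts, whose library totals were smaller, and 1411057 in controls.

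The 4 genes lie side by side in 120.7 kb of chromosome 6 in GRCm38. Akr1b3 (ENSMUSG00000001642.18) is on the minus strand at chr6:34302434-34317478. The other 3 are on the plus strand and face away from it. Akr1b8 (ENSMUSG00000029762.6) is at chr6:34354119-34368463, Akr1b10 (ENSMUSG00000061758.13) at chr6:34384218-34396950 and Akr1b7 (ENSMUSG00000052131.7) at chr6:34412334-34423142. The main transcript of each has 10 exons and a coding length of 948 bases. The coding sequences of Akr1b7 and Akr1b10 were 89.2% identical, those of Akr1b7 and Akr1b8 84.8%, and those of Akr1b8 and Akr1b10 84.7%. Akr1b3 stood apart from them at 71.6% to 72.1%.

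How alike the members are decides how well reads can be assigned to them, so 2 coding stretches are shown. The 60-base window with the most positions shared by all 4, 48 of 60, lies in exon 5 at coding bases 476 to 535, which in GRCm38 is chr6:34310530-34310589 on the minus strand for Akr1b3. Capitals mark bases that differ from Akr1b3.
Akr1b3: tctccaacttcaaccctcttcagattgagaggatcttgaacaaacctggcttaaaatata
Akr1b7: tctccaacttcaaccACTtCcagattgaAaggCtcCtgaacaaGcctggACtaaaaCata
Akr1b8: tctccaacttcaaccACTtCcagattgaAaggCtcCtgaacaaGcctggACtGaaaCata
Akr1b10: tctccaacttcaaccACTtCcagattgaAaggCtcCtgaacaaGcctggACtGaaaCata
Akr1b8 and Akr1b10 differ at 0 bases of this window, and Akr1b7 differs from each of them at 1.

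The window with the fewest shared positions, 21 of 60, lies in exon 4 at coding bases 352 to 411, which is chr6:34310943-34311002 on the minus strand for Akr1b3. Capitals again mark differences from Akr1b3.
Akr1b3: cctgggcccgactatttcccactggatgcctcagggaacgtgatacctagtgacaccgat
Akr1b7: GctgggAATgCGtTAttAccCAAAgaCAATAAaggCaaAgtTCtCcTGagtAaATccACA
Akr1b8: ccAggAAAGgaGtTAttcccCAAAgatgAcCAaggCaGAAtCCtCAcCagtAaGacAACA
Akr1b10: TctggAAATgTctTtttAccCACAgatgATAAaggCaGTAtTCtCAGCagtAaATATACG
Here Akr1b7 differs from Akr1b3 at 32 bases, Akr1b8 at 30 and Akr1b10 at 34.

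Among the 4 main transcripts few stretches of 50 bases were shared: 31 between Akr1b8 and Akr1b10, 14 between Akr1b7 and Akr1b10, 3 between Akr1b7 and Akr1b8, and 0 between Akr1b3 and any of the others. The difficulty lies elsewhere for Akr1b3. Of the 1338 stretches of 50 bases in its main transcript 1153, or 86.2%, also occur in transcripts of other annotated genes. Counted over all transcripts of Akr1b3, 1103 stretches occur on the opposite strand of Gm38056, an unclassified feature, and 752, 654 and 547 occur in the processed copies Gm6644, Gm6736 and Gm12138. For Akr1b7 the figure was 184 of 1232 (14.9%), of which 164 lie in Gm13857, a feature on the opposite strand that overlaps its end. It was 14 of 1309 (1.07%) for Akr1b8 and 3 of 1322 (0.227%) for Akr1b10. The labels give neither the read length nor the treatment of reads with several matches.

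Akr1b3 was lower in knockout hearts relative to nuclear RNA. It held 94, 150, 138 and 101 counts in knockout replicates 1 to 4, against 157, 174, 152 and 144 in control replicates 1 to 4. On the CPM scale these were 3.59, 4.34, 3.98 and 3.18 in knockouts, against 8.27, 9.12, 8.41 and 7.18 in controls. The groups did not overlap, and the highest knockout library stood well below the lowest control. The means were 3.77 ± 0.499 CPM in knockouts and 8.24 ± 0.802 CPM in controls (SD, n = 4 each), a log2 fold change of -1.12 (SE 0.12). Under library totals it was -0.12 (SE 0.21), a difference smaller than its error, so the lower level holds only relative to nuclear RNA.

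Together, the processed copies of Akr1b3 held more counts than the gene, and Gm6644 held the most. Gm6644 (chr1:55444074-55445024, minus strand), which shares 752 of the 50-base stretches with transcripts of Akr1b3, averaged 10.1 ± 0.524 CPM in knockouts and 19.2 ± 1.19 in controls. Gm6736 (chr12:13455023-13455970) averaged 3.07 ± 0.119 CPM in knockouts and 5.01 ± 0.513 in controls. Gm12138 (chr11:40672906-40673856) averaged 2.05 ± 0.321 CPM in knockouts and 4.17 ± 0.261 in controls (SD, n = 4 each). All 3 were lower in knockouts, with log2 fold changes of -0.92, -0.71 and -1.01 (SE 0.08, 0.12 and 0.15), but under library totals the values were 0.07 for Gm6644, 0.28 for Gm6736 and -0.01 for Gm12138. They were chosen for shared sequence after the values of Akr1b3 were known, and are not independent of it.

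Summed over the gene and its 3 copies, the counts were 472, 693, 654 and 605 in knockouts, against 697, 694, 644 and 759 in controls. The summed level was 18.0 to 20.1 CPM in knockouts and 35.6 to 37.8 CPM in controls, without overlap, and the log2 ratio of the means was -0.95. Under library totals this ratio was 0.05, so the sum too is lower only relative to nuclear RNA. Akr1b3 itself made up 16.7% to 21.6% of the sum in knockouts and 19.0% to 25.1% in controls, and these ranges overlap. How much of the sum comes from the gene was not tested. Gm38056, which spans Gm6644 on the opposite strand, held 1518 counts in knockouts and 1619 in controls and was left out of the sum.

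**Figure D1:**
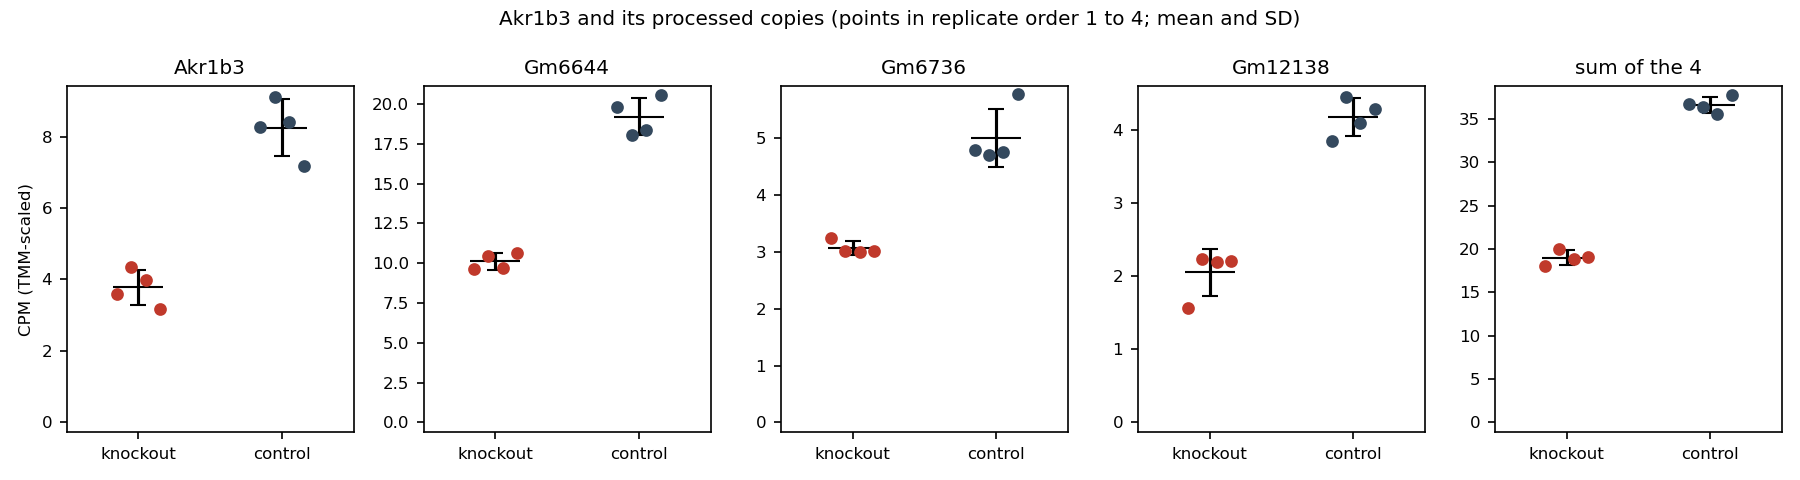
CPM of Akr1b3, of 3 processed copies that share its sequence, and of their sum, in each of 4 knockout and 4 control libraries, with mean and SD. Each axis has its own range starting near 0, and in every panel all knockout libraries lie below all controls, with the sum at 18.0 to 20.1 in knockouts and 35.6 to 37.8 in controls; under library totals the log2 ratio of the sum is 0.05.

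Akr1b10 was slightly lower in knockouts, with overlapping groups. It held 197, 172, 193 and 162 counts in knockouts, against 147, 163, 135 and 171 in controls. On the CPM scale these were 7.53, 4.98, 5.57 and 5.10 in knockouts, against 7.75, 8.54, 7.47 and 8.52 in controls. Knockout replicate 1, the library with the most mitochondrial RNA of its group, lay at the level of the controls, and the other knockouts lay below all of them. The means were 5.80 ± 1.19 CPM in knockouts and 8.07 ± 0.545 CPM in controls (SD, n = 4 each), a log2 fold change of -0.49 (SE 0.13). With each library left out in turn it ran from -0.63, without knockout replicate 1, to -0.42. Under library totals the sign turned to 0.48, so the direction for Akr1b10 holds only relative to nuclear RNA.

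Akr1b8 was higher in knockouts at low counts. It held 31, 76, 48 and 61 counts in knockouts, against 13, 6, 4 and 7 in controls. On the CPM scale these were 1.19, 2.20, 1.38 and 1.92 in knockouts, against 0.685, 0.314, 0.221 and 0.349 in controls. The groups did not overlap, although the lowest knockout, replicate 1, and the highest control, replicate 1, were the nearest to each other. The means were 1.67 ± 0.469 CPM in knockouts and 0.392 ± 0.202 CPM in controls (SD, n = 4 each), a log2 fold change of 2.08 (SE 0.33). With each library left out in turn it ran from 1.90 to 2.48, the latter without control replicate 1.

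Akr1b7 had no count in any control. It held 53, 61, 59 and 60 counts in knockouts, against 0, 0, 0 and 0 in controls. The knockouts were close together at 2.03, 1.77, 1.70 and 1.89 CPM, a mean of 1.85 ± 0.143 (SD, n = 4). The coefficient of variation was 7.77%, against 28.0% for Akr1b8, 20.4% for Akr1b10 and 13.2% for Akr1b3 in the same libraries. At 53 to 61 counts per library a spread this small is within counting error, so the closeness is not read as a trait of Akr1b7. With 3 counts over the control group as the limit that a count of 0 allows, the level was at least 46.6-fold higher in knockouts. This bound covers counting error only. The fitted log2 fold change depends on the count added to avoid a division by 0: it was 8.55 with the small default prior count of edgeR and 4.61 with a prior count of 2, and the authors' deposited table gives 4.63. Gm13857, which overlaps the end of Akr1b7 on the other strand, held 11 counts in knockouts and 0 in controls.

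**Figure D2:**
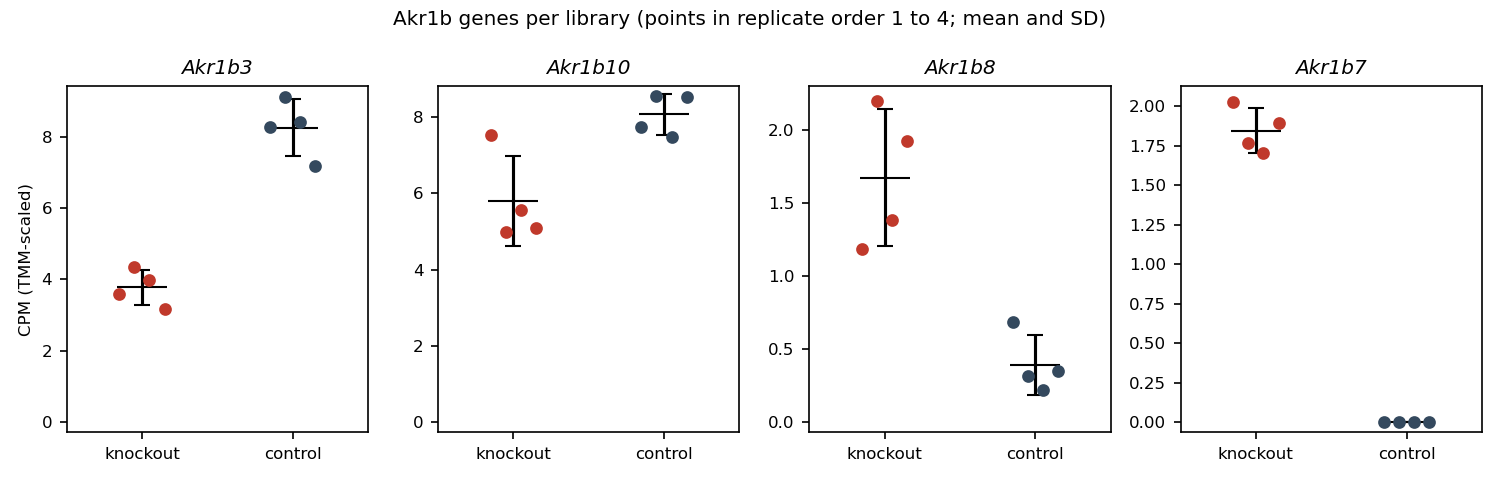
CPM of each Akr1b gene in the 4 knockout and 4 control libraries, with mean and SD; each panel has its own axis. Akr1b3 lies at 3.18 to 4.34 in knockouts and 7.18 to 9.12 in controls, Akr1b10 overlaps through knockout replicate 1, and Akr1b7 is at 0 in every control.

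All 4 members had enough counts for the fit of all genes, in which 2 were called higher and 2 lower, beside 26.1% of the 17891 genes tested that were called higher and 23.9% that were called lower. For 3 members no knockout library overlapped the controls, beside 45.4% of all genes tested. Akr1b7 passed the filter on low counts through its knockout libraries alone, and 1 control of Akr1b8 reached 10 counts. Since the members were chosen on this comparison, nothing is read from these counts.

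The summed level of the 4 genes was lower in knockouts relative to nuclear RNA, with a log2 ratio of -0.35, and higher under library totals, at 0.63. This sum leaves out the processed copies of Akr1b3, so it too rests on how reads were divided between the gene and the copies. The sum was 14.3, 13.3, 12.6 and 12.1 CPM in knockouts, against 16.7, 18.0, 16.1 and 16.0 in controls. Levels between genes were compared as CPM per kb, first of all annotated exons. In knockouts Akr1b10 stood at 1.64 ± 0.335, Akr1b7 at 1.44 ± 0.112, Akr1b8 at 1.12 ± 0.313 and Akr1b3 at 0.450 ± 0.0595 CPM per kb (SD, n = 4). The first 3 of these overlap their neighbours in the order, and Akr1b3 lies below them all on this scale, with its processed copies left out. In controls the order was Akr1b10 at 2.28 ± 0.154, Akr1b3 at 0.983 ± 0.0957, Akr1b8 at 0.262 ± 0.135 CPM per kb and Akr1b7 at 0, with no overlap between neighbours.

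Shares within the family do not depend on how libraries are scaled to each other. They do depend on how reads were divided between Akr1b3 and its processed copies, which are left out here. That treatment of reads is not given. Akr1b3 held 16.7% to 21.6% of the sum with its copies in knockouts and 19.0% to 25.1% in controls. Akr1b3 made up 8.69%, 10.9%, 11.0% and 8.28% of the summed counts per kb in knockouts, against 27.1%, 29.3%, 30.7% and 24.5% in controls. Akr1b7 and Akr1b8 together rested on 449 counts in knockouts and 30 in controls. Akr1b7 took 28.9% to 32.2% of the family in knockouts and 0% in controls, and Akr1b8 took 16.0% to 30.8% in knockouts and 4.52% to 12.6% in controls. Akr1b10 took 29.5% to 43.2% in knockouts and 60.3% to 68.9% in controls.

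The length used matters for every share, above all through Akr1b3, whose exons add up to 8384 bases because transcripts with retained introns are annotated, while its main transcript has 1387. Per kb of main transcript, a choice made after the values were seen, it took 24.6% to 32.1% of the family in knockouts and 44.4% to 51.9% in controls. On that scale Akr1b3 stood at 2.72 ± 0.360 CPM per kb in knockouts and 5.94 ± 0.578 in controls, and Akr1b10 at 4.23 ± 0.864 in knockouts and 5.89 ± 0.398 in controls (SD, n = 4 each). The order of these genes in controls is then not distinguishable. In knockouts the place of Akr1b3 is reversed: on the main-transcript scale it lies above Akr1b7 at 1.44 ± 0.112 and Akr1b8 at 1.23 ± 0.345 CPM per kb, with no library of theirs reaching it. Akr1b7 then took 14.1% to 16.6% of the family in knockouts and 0% in controls, and Akr1b8 took 8.28% to 16.6% in knockouts and 1.40% to 4.16% in controls. Akr1b10 took 37.2% to 52.1% in knockouts and 46.6% to 53.4% in controls, so that its ranges overlap, unlike on the scale of all exons. The log2 ratio of Akr1b3 to Akr1b10 counts was -1.07 to -0.20 in knockouts and -0.25 to 0.17 in controls, and these ranges overlap through knockout replicate 2.

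**Figure D3:**
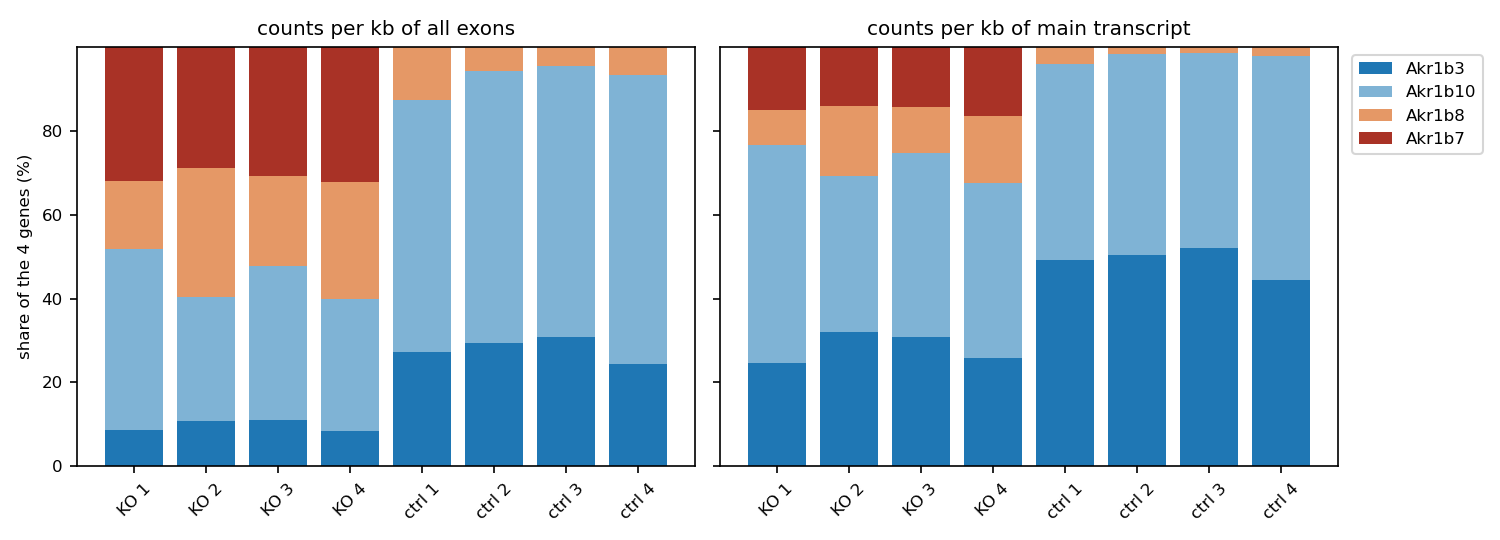
Share of each gene in the summed counts per kb of the 4 Akr1b genes, in each library, per kb of all exons (left) and per kb of main transcript (right). Akr1b7 is present in the knockouts and absent from the controls on both scales, while the share of Akr1b3 in controls is 24.5% to 30.7% on the left and 44.4% to 51.9% on the right.

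Promoters were available for the 3 plus-strand members. They are shown because these neighbours, alike in their coding sequence, did not go the same way relative to nuclear RNA. Under library totals all 3 were higher, at 0.48 for Akr1b10, 3.09 for Akr1b8 and 9.00 for Akr1b7. Each promoter runs from 250 bases before to 50 bases after the annotated start, on the plus strand of GRCm38.p6, from RefSeq: chr6:34383997-34384296 for Akr1b10, chr6:34353896-34354195 for Akr1b8 and chr6:34412112-34412411 for Akr1b7. Capitals mark matches to any of 4 motifs searched on both strands, and Akr1b8 holds none.
Akr1b10: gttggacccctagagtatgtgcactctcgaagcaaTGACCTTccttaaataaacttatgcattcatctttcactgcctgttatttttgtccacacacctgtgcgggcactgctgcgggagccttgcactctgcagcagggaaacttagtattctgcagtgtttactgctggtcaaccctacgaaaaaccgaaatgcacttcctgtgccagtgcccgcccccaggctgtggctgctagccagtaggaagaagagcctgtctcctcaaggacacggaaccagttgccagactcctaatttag
Akr1b8: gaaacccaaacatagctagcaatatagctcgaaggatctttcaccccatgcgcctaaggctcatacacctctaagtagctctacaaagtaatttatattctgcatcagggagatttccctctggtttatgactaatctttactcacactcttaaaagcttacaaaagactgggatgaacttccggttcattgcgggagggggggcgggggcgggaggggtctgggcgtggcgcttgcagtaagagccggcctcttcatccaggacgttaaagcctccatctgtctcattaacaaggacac
Akr1b7: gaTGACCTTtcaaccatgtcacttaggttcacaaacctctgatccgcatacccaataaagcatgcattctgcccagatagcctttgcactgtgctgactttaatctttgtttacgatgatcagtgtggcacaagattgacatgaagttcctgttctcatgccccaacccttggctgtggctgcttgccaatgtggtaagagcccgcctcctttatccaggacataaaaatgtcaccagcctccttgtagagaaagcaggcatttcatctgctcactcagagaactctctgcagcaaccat
The motif AAGGTCA, a binding motif of the nuclear receptors SF-1 and LRH-1, was found on the minus strand 248 bases before the start in Akr1b7 and 215 bases before it in Akr1b10, and 4.71% of 32544 promoters in the table hold it. Nr5a1, which encodes SF-1, held 0 counts in knockouts and 2 in controls. The gene of LRH-1 is not among the genes listed here, and binding to the motif was not tested. The cores of the antioxidant response element (TGACNNNGC, in 12.4% of promoters), of the amino acid response element (TGATGNAA, in 3.91%) and of the tonicity element (TGGAAA, in 21.5%) were not found in these windows. No matches overlapped.

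Protein-coding genes within 500 kb of the outer ends of the cluster were looked at in the same fit. Of 10 such genes 8 had enough counts, of which 2 rose, 0 fell and 6 did not pass (edgeR quasi-likelihood test, Benjamini-Hochberg adjustment over all genes). On the side of Akr1b3, the sugar-nucleotide transporter gene Slc35b4 stood at 5.91 ± 1.02 CPM in knockouts and 5.80 ± 0.393 in controls (log2 fold change 0.03, SE 0.13), and Lrguk held 5 and 3 counts in all. On the side of Akr1b7, Bpgm, which makes 2,3-bisphosphoglycerate, stood at 11.1 ± 3.57 CPM in knockouts and 12.1 ± 1.97 in controls (log2 fold change -0.14, SE 0.18). Its sign turned to 0.81 under library totals. Cald1, which encodes the actin-binding protein caldesmon, rose by a log2 fold change of 0.24 (SE 0.08; adjusted p = 0.0186 by edgeR). Its call was lost without knockout replicate 4, control replicate 1 or control replicate 3, up to an adjusted p of 0.0681. The other gene that rose relative to nuclear RNA was Exoc4, a subunit gene of the exocyst (0.30, SE 0.07), named here after its value was seen.

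**Figure D4:**
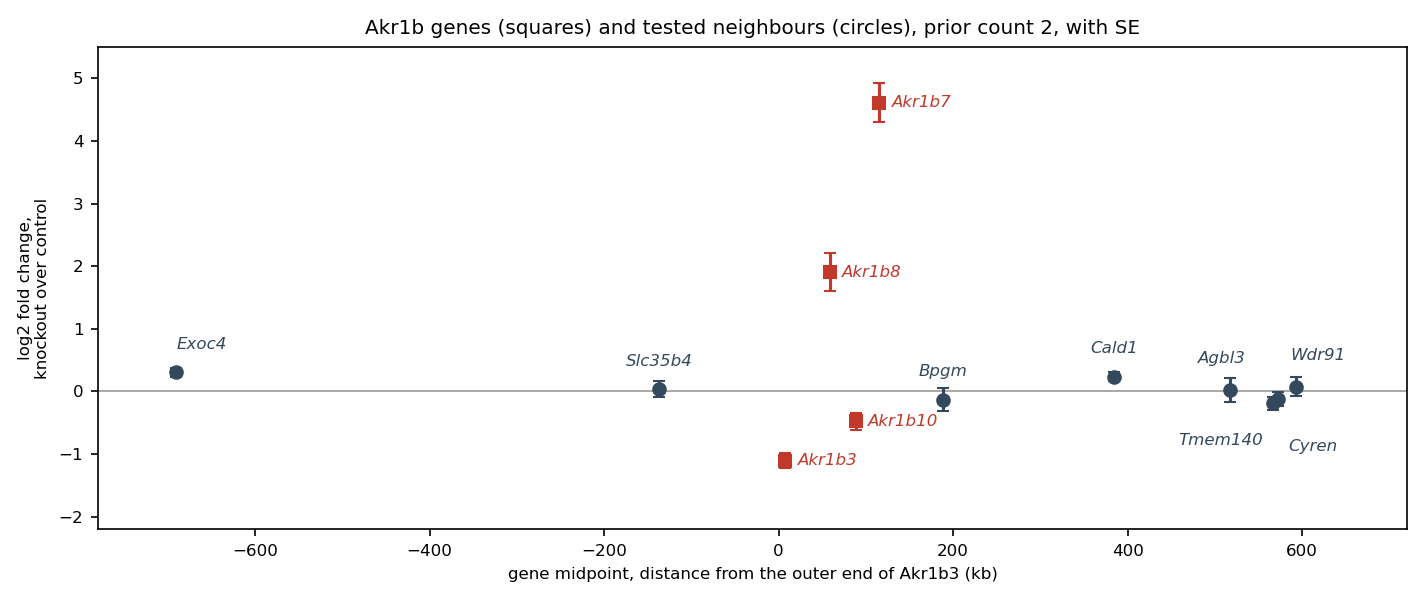
Log2 fold change, knockout over control, with SE, against the midpoint of each gene in kb from the outer end of Akr1b3, for the 4 Akr1b genes (squares) and the 8 tested neighbours (circles), fitted with a prior count of 2. Relative to nuclear RNA, the neighbours lie between -0.19 and 0.30, and the Akr1b genes between -1.11 and 4.61.

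Of 8 genes listed for the polyol pathway and fructose use 5 had enough counts, of which 1 rose and 2 fell, with a median log2 fold change of -0.27, against -0.01 over all genes tested. Over all genes tested, 26.1% rose and 23.9% fell. Under library totals 3 of the list rose and 0 fell, beside 14066 and 480 of all 17891 genes. The 1 that rose relative to nuclear RNA is a glycolytic enzyme that does not act on sorbitol or fructose. Sord, sorbitol dehydrogenase, fell to 27.9 ± 6.24 CPM in knockouts, against 45.4 ± 1.92 in controls (log2 fold change -0.70, SE 0.12; adjusted p = 0.000275 by edgeR; 0.25 under library totals). Khk, ketohexokinase, which phosphorylates fructose, fell to 0.955 ± 0.281 CPM, against 2.62 ± 0.454 in controls (-1.47, SE 0.22; -0.52 and adjusted p = 0.0683 by edgeR under library totals). Gpi1, the glucose phosphate isomerase of glycolysis, rose to 145 to 178 CPM, against 67.0 to 75.1 in controls, a ratio of 2.20 (adjusted p = 7.52e-08 by edgeR). Dcxr and Tkfc did not pass, and Aldoc and the fructose transporter gene Slc2a5 held 37 and 5 counts in knockouts and 8 and 0 in controls.

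Among 16 aldo-keto reductase genes outside the Akr1b family, 8 had enough counts, 2 rose, 2 fell and 4 did not pass (median log2 fold change -0.09). These shares are close to the 26.1% higher and 23.9% lower over all genes. Under library totals 5 rose and 0 fell, beside 14066 and 480 of all 17891 genes. Akr1a1, the general aldehyde reductase, rose to 44.2 ± 5.25 CPM in knockouts, against 23.0 ± 0.498 in controls (0.95, SE 0.09; adjusted p = 8.2e-07 by edgeR). Akr7a5 fell to 4.56 ± 0.270 CPM, against 7.48 ± 0.592 in controls (-0.71, SE 0.10; 0.28 under library totals), and Akr1c14 fell to 1.53 ± 0.504 CPM, against 3.50 ± 0.253 in controls (-1.17, SE 0.21; -0.15 under library totals). Akr1cl rose on 67 counts in knockouts and 17 in controls (1.21, SE 0.41; adjusted p = 0.0249 by edgeR). Its call was lost in DESeq2, without knockout replicate 3, and without control replicate 1, 2 or 4, and its adjusted p ran from 6.17e-05 to 0.0868 over the alternatives. No other member of the Akr1c family in the list had enough counts, and Akr1c19, which held the most counts among them, had 39 counts in knockouts and 35 in controls.

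Aldehyde dehydrogenases, which oxidise aldehydes where aldo-keto reductases reduce them, were called in both directions, but the balance depends on scaling. Of 19 genes 16 had enough counts, of which 7 rose, 6 fell and 3 did not pass (median log2 fold change -0.06), beside 26.1% higher and 23.9% lower over all genes. Under library totals 9 rose and 1 fell, beside 14066 and 480 of all 17891 genes. The rises were led by Aldh18a1, the proline synthesis enzyme (3.40, SE 0.10; 39.0 ± 3.70 CPM in knockouts and 3.70 ± 0.399 in controls), and by Aldh1l2, of mitochondrial folate metabolism (1.98, SE 0.12). Aldh1b1, a mitochondrial enzyme, rose as well (1.09, SE 0.11), and Aldh4a1, which breaks proline down, fell (-1.38, SE 0.12; 12.3 ± 2.09 CPM in knockouts and 31.9 ± 3.56 in controls). The members of this list that do synthesis or breakdown of amino acids and folate are not detoxifying enzymes in the narrow sense. Aldh2, the main mitochondrial enzyme for small aldehydes, named here after its value was seen, fell to 17.2 ± 3.38 CPM, against 29.6 ± 0.368 in controls (-0.78, SE 0.12; 0.19 under library totals).

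Of 15 other genes that remove reactive carbonyls 13 had enough counts, of which 4 rose, 4 fell and 5 did not pass (median log2 fold change 0.01), beside 26.1% higher and 23.9% lower over all genes. Under library totals 11 rose and 0 fell, beside 14066 and 480 of all 17891 genes. Adh5, the glutathione-dependent formaldehyde dehydrogenase, rose (0.45, SE 0.07; 26.1 ± 1.41 CPM in knockouts and 19.1 ± 0.315 in controls). Fn3k, which starts the removal of fructosamines from proteins, fell (-1.01, SE 0.20; -0.07 under library totals), as did the carbonyl reductase genes Cbr1 (-0.47, SE 0.12; 0.51 under library totals) and Cbr2 (-0.83, SE 0.21; 0.18 under library totals). Glo1, of the glyoxalase pathway, did not pass (-0.05, SE 0.07), but stood at 0.94 under library totals. Without knockout replicate 4 or without control replicate 2, 3 or 4 2 of the list rose, with the calls of Gsta4 and Hagh lost.

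Genes of NADPH supply and of the transcription factor NRF2 were mostly higher. Of 19 genes, all with enough counts, 15 rose, 0 fell and 4 did not pass (median log2 fold change 1.03), against 26.1% of all genes that rose. Hmox1, heme oxygenase, rose to 20.0 ± 7.35 CPM, against 1.44 ± 0.383 in controls (3.80, SE 0.30; adjusted p = 2.05e-07 by edgeR). Nqo1, a quinone reductase, rose to 59.5 ± 13.6 CPM, against 14.7 ± 2.41 in controls (2.02, SE 0.16). Gclm and Gclc, the subunits of the enzyme that limits glutathione synthesis, rose by 1.93 (SE 0.14) and 1.45 (SE 0.12). Under library totals 19 rose, beside 14066 of all 17891 genes. NADPH is the cofactor of the Akr1b enzymes, and human AKR1B10 is a known NRF2 target. Whether the mouse gene of the same name is its counterpart was not examined, and mouse Akr1b10 was lower here relative to nuclear RNA. No test here links these genes to the Akr1b family.

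The response to high salt, in which the factor NFAT5 raises aldose reductase to make sorbitol as an osmolyte, showed 3 rises, 1 fall and 4 genes that did not pass among 8 tested of 10 listed (median log2 fold change 0.16). Over all genes tested, 26.1% rose and 23.9% fell. Under library totals 6 of the list rose and 0 fell, beside 14066 and 480 of all 17891 genes. Nfat5 stood at 62.0 ± 3.21 CPM in knockouts and 62.4 ± 3.24 in controls (-0.01, SE 0.07), and Slc5a3, the myo-inositol transporter gene of that response, did not pass (0.31, SE 0.19). By library totals Nfat5 stood at 0.99 and Slc5a3 at 1.35. Slc6a6, the taurine transporter gene, rose to 170 ± 22.0 CPM, against 74.8 ± 5.93 in controls (1.18, SE 0.10). Slc38a2, an amino acid transporter gene, rose (1.08, SE 0.16), as did the chaperone gene Hspa4l (0.60, SE 0.09), and Nos2 fell (-1.42, SE 0.22; -0.41 under library totals). Of the 15 genes that fell over these 6 lists, 9 changed sign under library totals. The 32 that rose could not, because this scaling moved log2 fold changes up, by 0.99 at the median.

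**Figure D5:**
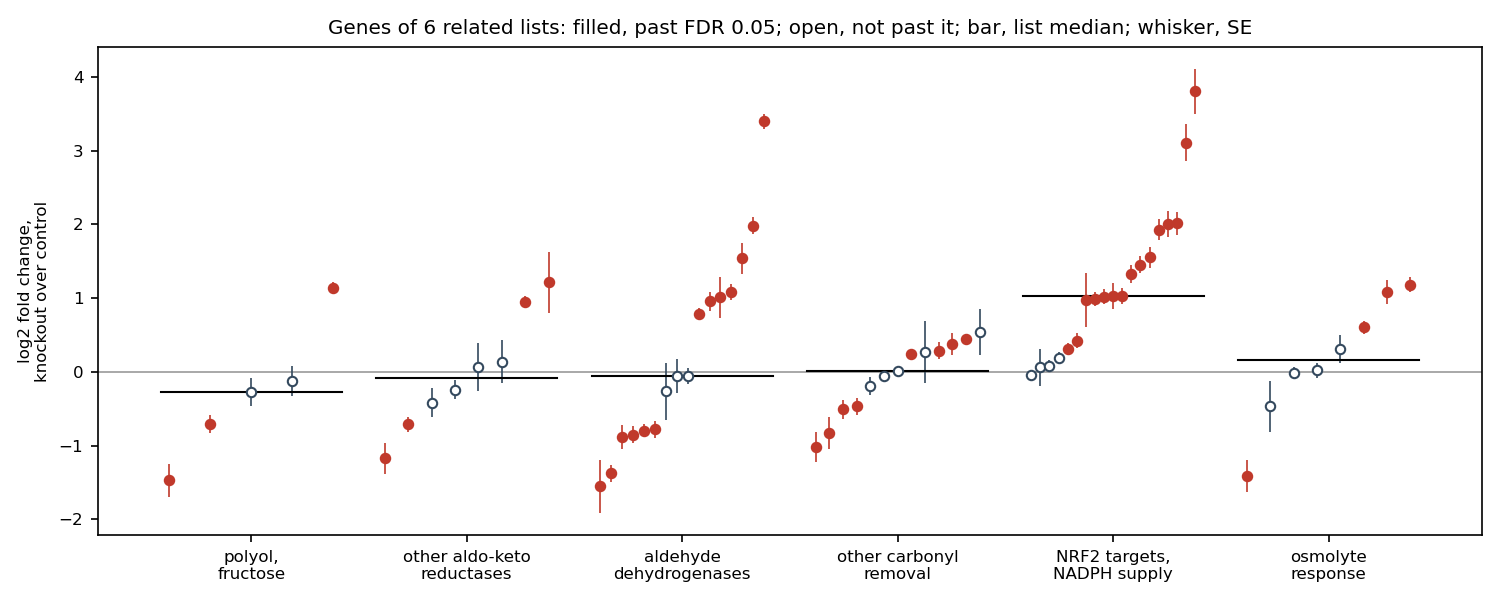
Log2 fold change, knockout over control, with SE, of every tested gene in 6 lists around the Akr1b enzymes; filled points passed FDR 0.05 in edgeR, open points did not, and bars are list medians. The median of NRF2 targets and NADPH supply is 1.03, and the other medians lie between -0.27 and 0.16.

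Markers of other cell types were looked at beside Akr1b7, since it is known from other tissues. Of 8 adrenal cortex markers Cyp11b1, Cyp11b2 and Cyp21a1 were at 0 in all 8 libraries. Their summed level was 4.47 to 6.38 CPM in knockouts and 3.15 to 4.64 CPM in controls, nearly all of it Star, which held 670 counts in knockouts and 305 in controls. Star rose by 0.39 (adjusted p = 0.0457 by edgeR), and Hsd3b1, an enzyme of steroid synthesis, rose on 41 counts in knockouts and 2 in controls (adjusted p = 0.00104). The 8 adipocyte markers summed to 57.9 to 105 CPM in knockouts and 67.6 to 78.2 CPM in controls, nearly all of it Fabp4, while Adipoq held 3 counts in knockouts and 1 in controls. The 8 fibroblast markers summed to 263 to 503 CPM in knockouts and 274 to 285 CPM in controls, of which 3 rose and 1 fell. Of 8 macrophage markers 4 fell (93.5 to 144 CPM in knockouts and 131 to 187 in controls), and of 8 endothelial markers 1 rose and 3 fell (382 to 430 CPM in knockouts and 427 to 445 in controls). Of 8 cardiomyocyte markers 7 fell. Over all genes tested, 26.1% rose and 23.9% fell. Beside these shares, the fibroblast, macrophage and endothelial counts in lists of 8 are not read as changes of cell types. Of the 15 markers that fell over all lists, 11 changed sign under library totals. The 7 that rose could not, because this scaling moved log2 fold changes up, by 0.99 at the median. In bulk RNA, fewer cells of a type and less RNA per cell cannot be told apart. Of 4 atrial markers Nppa alone rose, and Myl7 and Sln held 6 and 1 counts in knockouts and 2 and 0 in controls. The part of these cell types in the values of the Akr1b genes was not tested.

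The genes with profiles nearest to each member were found by the root mean square distance between centred log2 CPM values over the 8 libraries, in which the difference between groups weighs most. For Akr1b7, whose controls are all 0, the size of the step in its profile is set by the prior count of 2 used here, and its neighbours in profile depend on that choice. Nearest to Akr1b7 on this setting were Arfgef3 (distance 0.26), Slc7a5 (0.29) and Stbd1 (0.31). Slc7a5, a transporter of large neutral amino acids, stood at 33.8 ± 7.32 CPM in knockouts and 1.36 ± 0.162 in controls, and Stbd1, a glycogen-binding protein gene, at 55.9 ± 5.60 CPM in knockouts and 3.36 ± 0.311 in controls. Nearest to Akr1b8 were Nrxn2 (0.27), Cstb (0.31) and Ero1l (0.31), nearest to Akr1b3 were Tmc3, Pdzd2 and Ccdc85c (each 0.10), and nearest to Akr1b10 were Acadsb, Crebrf and Gon4l (each 0.07). These places are not sharp: 21 genes lay within 2 times the smallest distance from Akr1b7, 320 from Akr1b8, 101 from Akr1b3 and 226 from Akr1b10.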

How the data were processed

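Total RNA of crude heart mitochondria was made into Illumina TruSeq libraries and sequenced as paired ends on a MiSeq, per the labels' protocols. The authors deposited a raw count for each gene, not normalized. The submitters' processing notes list DESeq2 1.14.1, featureCounts, Bowtie2, bedtools, SAMtools 1.3.1 and R 3.3.2, and the build mm10, without role or order. No source used here says whether counting used strand, so overlapping antisense features cannot be told apart. The deposited normalized signal values are the raw counts times 1 constant per library and were used for that check only. From the authors' deposited table gene names and log2 fold changes with log2 standard errors were read, and its test statistic (a score) and p-values were not used.

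Counts were tested with edgeR 4.0.16 in R 4.3.3 by the quasi-likelihood test for genotype, after TMM scaling and removal of low genes by filterByExpr (minimum count 10). The tests were two-sided, and p-values over the 17891 genes were adjusted by Benjamini-Hochberg with a threshold of 0.05. Standard errors were derived from each gene's fold change and F statistic. The script was tested on simulated data. The members, the 6 gene lists, the 7 marker lists and the tests were chosen with earlier results of these data known. From each list up to 4 called genes by smallest p were named, as were the 2 nearest neighbours on each side, the 3 genes nearest in profile to each member, and other list, copy and marker genes named here were chosen after their values were seen. Levels between genes were divided by exon length. Replicates are separate mice per the series text. Positions and exon lengths are from GENCODE M21 (GRCm38), which matched the IDs of all 4 members, and promoters are from RefSeq. Coding sequences were aligned with Biopython 1.88. Protein sequences were not used here. The values of 1 listed gene are not reported here. Alternatives were RLE factors, library totals, DESeq2 1.42.0, no filter, nuclear genes alone, the replicate number as a block, a prior count of 2 and each library left out.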

Additional observations from a re-analysis of the deposited data

How the results depend on the processing

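Scaled by library totals alone, the log2 fold change of Akr1b10 turned to 0.48, and those of Akr1b3, Akr1b8 and Akr1b7 were -0.12, 3.09 and 9.00. Over all genes 14066 were then called higher and 480 lower, with the median shifted by 0.99. In the lists the calls became 3 higher and 0 lower for polyol and fructose genes, 5 and 0 for other aldo-keto reductases, 11 and 0 for carbonyl removal 6 and 0 for osmolytes, 9 and 1 for aldehyde dehydrogenases and 19 and 0 for NRF2 and NADPH genes. Akr1b7 was 7.59 in DESeq2 and 4.61 with a prior count of 2, as its controls hold no count, and DESeq2 called 1 other aldo-keto reductase higher. Summed with its processed copies, Akr1b3 stood at -0.95. The share of Akr1b3 in the family, knockouts minus controls, was -18.2 percentage points, -20.4 without division by length and -20.7 per main transcript; the last of these and the sum with copies were added after seeing the data. With each library left out in turn, 1 to 2 other aldo-keto reductases and 2 to 4 carbonyl genes were called higher, and the members stayed at -1.19 to -1.04 (Akr1b3), -0.63 to -0.42 (Akr1b10), 1.90 to 2.48 (Akr1b8) and 8.49 to 8.61 (Akr1b7). Same-numbered libraries did not deviate together (correlations -0.0136 to 0.0497, with 2 of 8 libraries closest to their own number). With the replicate number as a block 4580 genes were called higher and 4253 lower, and the members stood at -1.13, -0.50, 2.08 and 8.56 in the same order. The low counts of Akr1b7 and Akr1b8 limit their precision.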
